A study of Mus musculus with 7 samples.

Results

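Metallothioneins and the genes that move and sense zinc were examined in OT1 CD8 T cells, whose transgenic receptor recognises a peptide of ovalbumin. The 7 genes are Mt1, Mt2 and Mt3, the zinc sensor Mtf1, the exporter Slc30a1 and the importers Slc39a6 and Slc39a10. They were picked by name out of 53656 gene rows, with earlier results of the same comparison in view, so their values in it describe them and carry no test. All 7 passed the filter on low counts, as did 15896 genes in all.

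The OT1 cells came out of tumours of B16-OVA-GP61, sorted on CD8 and on CD45.1, a congenic marker. B16-OVA-GP61 is a mouse melanoma line named for ovalbumin and the GP61 epitope. In 4 libraries the tumours held no SMARTA cells, and in 3 libraries SMARTA cells, CD4 T cells with a transgenic receptor, were present. By its title, the study asked how CD4 T cells act on tumour-specific CD8 T cells. Libraries held 38092722 to 49438357 read pairs assigned to genes, and levels are given as CPM, counts relative to library size. A gene at 0 could be at up to 0.0607 to 0.0788 CPM, which is what 3 counts come to and covers counting error only. The labels give no strain, age, sex, day after transfer or number of mice per library and do not say whether libraries came from separate animals, so errors and p-values here measure only the spread among these 7 libraries, some of which may be technical.

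The CD8 T cell markers Cd3d, Cd3e, Cd3g, Cd8a, Cd8b1, Cd2 and Lck summed to 9117 to 12428 CPM in every library. Markers of other cell types were present at low levels: 8 macrophage and monocyte markers summed to 49.2 to 180.0 CPM without and 29.6 to 196 CPM with SMARTA, and 7 melanoma markers to 6.91 to 68.4 and 6.70 to 9.24 CPM. The 5 B cell markers summed to 4.98 to 33.1 CPM without and 11.3 to 59.2 CPM with SMARTA. The 6 neutrophil markers summed to 39.7 and 37.5 CPM in replicates 1 and 2 without SMARTA and to 5.94 to 11.1 CPM in the other 5 libraries. The 4 CD4 T cell markers summed to 39.7 to 96.2 CPM without and 120.5 to 140.3 CPM with SMARTA, mostly Cd40lg, while Cd4 itself was at 0.650 to 8.48 CPM over the 7 libraries. The 8 fibroblast and endothelial markers, mostly Pecam1, summed to 89.6 to 136 CPM without and 151 to 211 CPM with SMARTA. Pecam1 alone was at 74.2 to 208 CPM over the 7 libraries, while the endothelial markers Cdh5 and Kdr were at 0 to 1.53 and 0 to 0.338 CPM. The sum therefore does not show endothelial cells. No marker of these lists was at 0 in every library. Replicate 1 with SMARTA stood apart: its 7 erythroid markers summed to 4829 CPM, against 9.72 to 223 CPM in the other 6. The part of these cells in the results below was not tested, and log2 fold changes without replicate 1 with SMARTA are given for the 7 members and, among other genes and lists named, where they turn a sign, end or make a call or differ by over 1.5 times. In bulk libraries fewer cells of a type and less RNA per cell cannot be told apart.

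Metallothioneins are small proteins rich in cysteine that bind zinc and copper and buffer the free pool of these metals. MTF1 is a transcription factor that senses zinc and drives Mt1, Mt2 and Slc30a1 through metal response elements in their promoters. Transporters of the SLC30 (ZnT) family carry zinc out of the cytosol, and those of the SLC39 (ZIP) family carry it in. In tumour-infiltrating CD8 T cells metallothioneins are known as part of a programme of T cell dysfunction, and zinc entry through ZIP6, the product of Slc39a6, has been linked to T cell activation.

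The coding sequences below show why the first 3 genes form 1 family and whether their reads can be told apart. They are those of the GENCODE M21 transcripts with a consensus coding sequence (GRCm38), and the capitals mark TGC and TGT, the codons of cysteine.
Mt1: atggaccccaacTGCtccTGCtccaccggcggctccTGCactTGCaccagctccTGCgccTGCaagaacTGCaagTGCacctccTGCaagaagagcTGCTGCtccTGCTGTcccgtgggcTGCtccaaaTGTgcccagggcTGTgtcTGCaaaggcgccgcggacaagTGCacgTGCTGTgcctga
Mt2: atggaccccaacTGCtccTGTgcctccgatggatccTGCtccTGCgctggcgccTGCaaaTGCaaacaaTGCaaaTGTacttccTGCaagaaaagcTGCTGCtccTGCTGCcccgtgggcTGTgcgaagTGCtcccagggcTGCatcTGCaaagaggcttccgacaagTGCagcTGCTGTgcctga
Mt3: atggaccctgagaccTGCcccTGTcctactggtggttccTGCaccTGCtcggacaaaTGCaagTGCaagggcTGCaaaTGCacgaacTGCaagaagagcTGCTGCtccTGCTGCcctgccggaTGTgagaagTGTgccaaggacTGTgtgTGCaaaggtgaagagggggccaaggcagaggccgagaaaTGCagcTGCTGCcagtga
Each of the 3 holds 20 cysteine codons, out of 61 codons before the stop in Mt1 and Mt2 and 68 in Mt3. Mt1 and Mt2 are identical at 148 of 186 aligned bases (79.6%), Mt1 and Mt3 at 137 of 207 and Mt2 and Mt3 at 140 of 207. The longest run of bases that any pair of these transcripts shares is 27, shorter than the reads of 50 bases, so that no whole read matches 2 of them exactly.

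Mt3, Mt2 and Mt1 lie in this order on the plus strand of chromosome 8 (GRCm38). Mt3 spans 94152607 to 94154146, Mt2 94172664 to 94173568 and Mt1 94179082 to 94180327, with 5513 bases between Mt2 and Mt1. Mtf1 lies on chromosome 4 from 124802104 to 124849800, plus strand. Slc30a1 (191906767 to 191913247, plus strand) and Slc39a10 (46807544 to 46892852, minus strand) are on chromosome 1. The counting was over annotated exons without strand, and this bears most on Mt2. Of its 588 exonic bases 432 (73.5%) are shared with RP23-98C9.5, a gene annotated on the opposite strand, and pairs that lie wholly in shared bases go to neither gene. Counts of Mt2 therefore rest mainly on the other 156 bases, and reads of Mt2 and of RP23-98C9.5 cannot be told apart where they overlap. The shared part is 8.09% in Mtf1 and 8.92% in Slc30a1, and Mt1, Mt3, Slc39a6 and Slc39a10 share no exonic base with another gene.

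Promoter windows of RefSeq (GRCm38.p6), 250 bases before to 50 after the start site, were found for 6 of the 7 genes; Slc39a6 had none in the table used. Mt1 and Mt2 were low in the same libraries, and the 250 bases before their start sites are shown for this reason.
Mt1, chr8:94178839-94179088, plus strand: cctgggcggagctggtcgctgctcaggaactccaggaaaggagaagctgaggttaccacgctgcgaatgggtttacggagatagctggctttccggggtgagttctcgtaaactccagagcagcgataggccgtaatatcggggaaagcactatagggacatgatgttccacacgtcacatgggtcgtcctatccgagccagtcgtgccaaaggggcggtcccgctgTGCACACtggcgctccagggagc
Mt2, chr8:94172368-94172617, plus strand: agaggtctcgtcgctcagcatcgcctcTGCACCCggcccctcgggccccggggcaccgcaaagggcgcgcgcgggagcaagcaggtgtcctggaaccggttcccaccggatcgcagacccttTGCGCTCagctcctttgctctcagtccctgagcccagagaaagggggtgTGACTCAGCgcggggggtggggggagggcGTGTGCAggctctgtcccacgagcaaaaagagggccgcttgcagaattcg
Capitals mark the core of the metal response element, searched as TGCACNC and TGCGCNC on both strands, and in Mt2 also 1 match to TGACNNNGC, the core of the antioxidant response element. Over the whole windows of 300 bases the metal response core was found 4 times for Mt2, 3 times for Mt1, 2 times for Slc30a1 and once for Mt3. In Mt2 they begin at −223, −128, −50 and 5, and the antioxidant match at −79. In Mt1, 1 match lies before the start site, at −23 to −17, and 2 lie after it, at 3 to 9 and 21 to 27. Positions count from the start site of each window, and bases beyond the windows were not searched. No match was found for Mtf1 or in either of 2 windows of Slc39a10. These windows, 46925727 to 46926026 and 46853569 to 46853868, do not reach base 46892852, where Slc39a10 begins on the minus strand. The window of Mtf1, 124802299 to 124802598, likewise does not reach base 124802104, where the annotated Mtf1 begins. For Mt2 the start site of the window lies before the annotated first base, 94172664, and so does the match at 5. Of 32851 promoter windows of this length 25.7% held at least 1 match, 1.97% at least 3 and 0.517% at least 4. These shares were not matched for base content. G and C made up 60.7% of the window of Mt1, 67.7% of Mt2, 56% of Mt3 and 73% of Slc30a1, against a median of 52.7%. The antioxidant core was found once each in Mt2 and Slc30a1, and in 12.4% of all windows. These matches are letters in a window and not measured binding.

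Mt1 and Mt2 were both lower in every library with SMARTA than in any library without. Mt1, the most abundant metallothionein here, was at 72.3, 72.4, 51.3 and 72.0 CPM in replicates 1 to 4 without SMARTA and at 21.7, 19.7 and 19.7 CPM in replicates 1 to 3 with SMARTA. The 3 libraries with SMARTA lay close together, and the lowest library without SMARTA, replicate 3, was still above all of them. The means were 67.0 ± 10.5 and 20.4 ± 1.18 CPM (SD, n = 4 and 3), a 3.29-fold lower level with SMARTA and a log2 fold change of −1.72 ± 0.22 (SE). Mt2 was at 9.54, 11.5, 5.81 and 10.1 CPM without SMARTA and at 1.34, 1.57 and 1.38 CPM with SMARTA. Replicate 3 was again the lowest without SMARTA, and the groups did not overlap. Mt2 was 6.45-fold lower with SMARTA (9.23 ± 2.43 against 1.43 ± 0.122 CPM; log2 fold change −2.69 ± 0.37, SE), on 286 to 529 counts without and 47 to 65 counts with SMARTA.

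Mt3, the metallothionein best known from the brain, was at 2.03, 1.35, 3.90 and 1.14 CPM without SMARTA and at 1.84, 0.651 and 0.941 CPM with SMARTA. Its groups overlapped, since replicate 1 with SMARTA exceeded replicates 2 and 4 without. The log2 fold change was −0.87 ± 0.61 (SE). Leaving out replicate 1 with SMARTA gave −1.41, and leaving out replicate 3 without SMARTA gave −0.39, so single libraries set its size. Mt4, the fourth gene of the family, had no count in any of the 7 libraries.

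**Figure D1:**
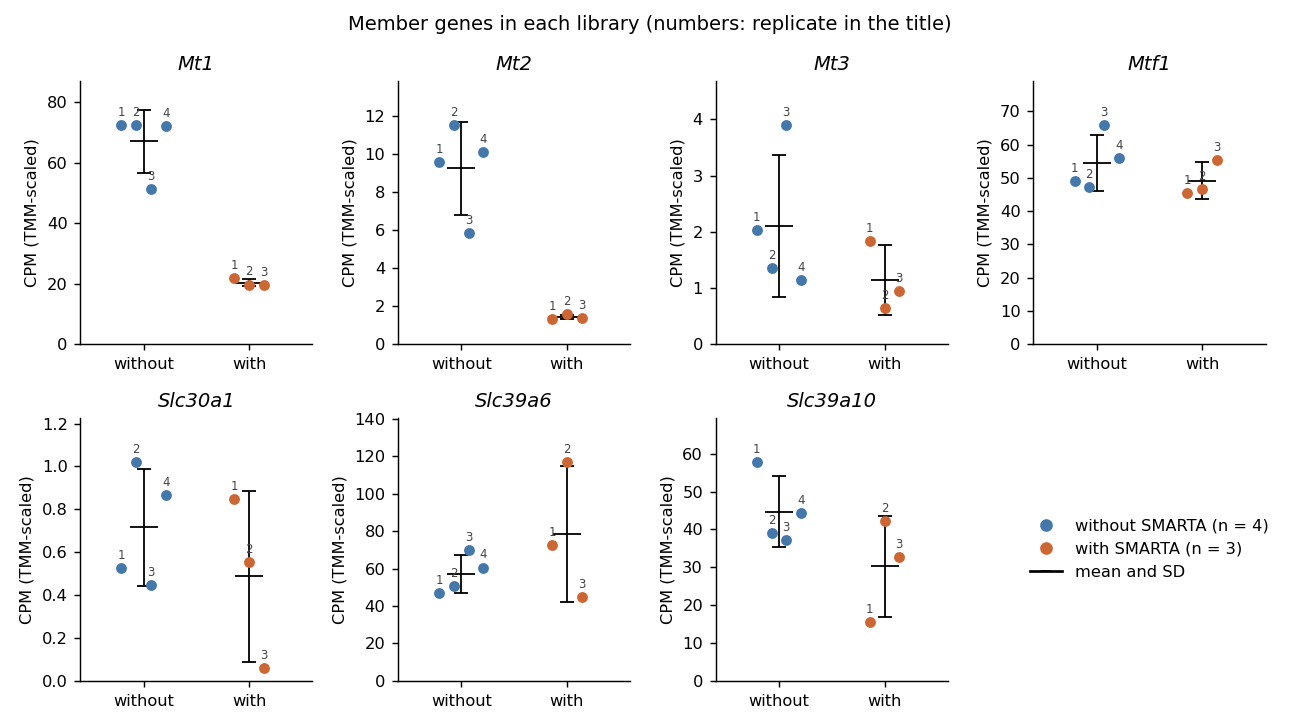
TMM-scaled CPM (y axes, from 0, a scale for each gene) of the 7 genes in each library without (blue) and with (orange) SMARTA; numbers are replicates and bars the mean and SD. Mt1 and Mt2 do not overlap between the groups, while the other 5 genes do.

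Mt2 differed more than Mt1 in proportion. There were 7.58, 6.29, 8.83 and 7.16 Mt1 counts for each Mt2 count in replicates 1 to 4 without SMARTA, and 16.3, 12.6 and 14.2 in replicates 1 to 3 with SMARTA. The ratio lay higher in all 3 libraries with SMARTA than in the 4 others, with means of 7.47 ± 1.06 and 14.4 ± 1.85 (SD). A ratio within a library does not depend on the scaling of libraries, but it uses the same counts that chose the genes and has no test here. It also rests on the 156 bases of Mt2 that no other gene shares, and RP23-98C9.5 had 22 to 59 counts without SMARTA and 1 to 3 with SMARTA.

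**Figure D2:**
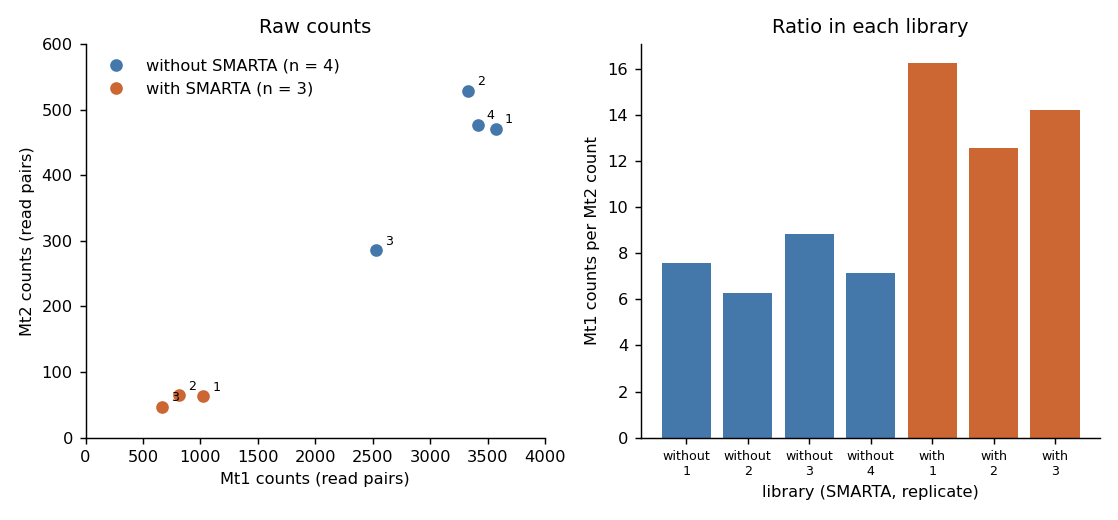
Left, raw counts of Mt1 (x axis) and Mt2 (y axis) in each library, with replicate numbers; right, Mt1 counts per Mt2 count in each library. The ratio is 6.29 to 8.83 without and 12.6 to 16.3 with SMARTA.

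The regulator and the transporters showed no such separation. Mtf1 was at 49.0, 47.3, 65.9 and 56.0 CPM without SMARTA and at 45.4, 46.7 and 55.4 CPM with SMARTA, a log2 fold change of −0.15 ± 0.21 (SE). It was −0.11 without replicate 1 with SMARTA, −0.27 without replicate 3 with SMARTA, −0.05 without replicate 3 lacking SMARTA and −0.31 with library totals in place of TMM scaling. Its libraries were interleaved, and each group's SD (8.47 and 5.45 CPM) was larger than the difference between the means of 54.5 and 49.2 CPM. Slc30a1, which encodes the exporter ZnT1 of the cell surface, was scarcely detected: 26, 47, 22 and 41 counts without SMARTA and 40, 23 and 2 counts with SMARTA. Its 2 counts in replicate 3 lay below the level of 3 counts used here as the floor, and its log2 fold change of −0.54 ± 0.85 (SE) was −0.07 without that library and −1.20 without replicate 1 with SMARTA.

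The importers varied more among the libraries with SMARTA than among those without. So did genes in general: the median SD was 29.3% of the mean without and 36.8% with SMARTA. With SMARTA, 62.4% and 60.1% of tested genes varied less by this measure than Slc39a6 and Slc39a10. Slc39a6, on the minus strand of chromosome 18 from 24579881 to 24603817, was at 47.2, 50.8, 70.1 and 60.6 CPM without SMARTA and at 72.9, 117 and 45.0 CPM with SMARTA, so that the group with SMARTA held both the highest and the lowest library. The log2 fold change was 0.46 ± 0.32 (SE). Leaving out replicate 1, 2 or 3 with SMARTA gave 0.51, 0.05 and 0.72. Slc39a10, which encodes ZIP10, a close relative of ZIP6, was at 57.9, 39.0, 37.2 and 44.3 CPM without SMARTA and at 15.7, 42.2 and 32.8 CPM with SMARTA. Replicate 1 with SMARTA, the library with the erythroid transcripts, was the lowest, and replicate 2 lay within the range of the libraries without SMARTA. The log2 fold change of −0.56 ± 0.35 (SE) was −0.26 when replicate 1 with SMARTA was left out and −0.88 when replicate 2 was.

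Of the 7 genes, Mt1 and Mt2 were among those called lower with SMARTA in the fit over all genes (edgeR, quasi-likelihood, adjusted p under 0.05 by Benjamini-Hochberg). That fit called 3.15% of the 15896 genes tested, 1.63% of them lower and 1.52% higher, and 19.2% had no overlap between the groups, 10.5% lower and 8.73% higher with SMARTA. Since this comparison chose the genes, nothing is read from these counts. Mt1 was not among the called genes without replicate 4 lacking SMARTA (log2 fold change −1.68) or without replicate 2 or 3 with SMARTA (−1.69 and −1.73). Mt2 was not without replicate 1 or 4 lacking SMARTA (−2.72 and −2.65) or without replicate 2 or 3 with SMARTA (−2.76 and −2.70). Leaving out replicate 1 with SMARTA gave −1.79 for Mt1 and −2.66 for Mt2, both still called.

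The spread within a group, which enters the comparison that chose the genes and so is only described, was small for Mt1 and Mt2 among the libraries with SMARTA. Their coefficients of variation there were 5.78% and 8.55%, against a median of 36.8% over all genes tested, and 2.07% and 4.59% of tested genes had a smaller one. Mt2 had 47 to 65 counts in those libraries, for which counting error alone is larger than 8.55%, so its small spread shows little. The median takes in genes of every level, and 73.4% of tested genes had a lower mean CPM than Mt1. Without SMARTA the coefficients of Mt1 and Mt2 were 15.6% and 26.3%, against a median of 29.3%. Mtf1 varied by 15.5% without and 11.1% with SMARTA. Slc39a6 went from 18.0% without to 46.4% with SMARTA, Slc39a10 from 21.0% to 44.5%, and Slc30a1 from 38.2% to 81.9%. These coefficients rest on 4 and 3 libraries and were not tested against each other.

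Levels of different genes were compared per length, as TPM (counts per annotated exonic base, scaled to the same sum in every library). Without SMARTA, Mt1 led at 164 ± 28.8 TPM (SD, n = 4), followed by Mt2 at 47.9 ± 14.1, Slc39a6 at 42.5 ± 7.21, Slc39a10 at 22.1 ± 4.13 and Mtf1 at 18.5 ± 2.55 TPM. Mt3 (5.92 ± 3.40 TPM) and Slc30a1 (0.419 ± 0.177 TPM) came last. Mt2 and Slc39a6, and likewise Slc39a10 and Mtf1, were closer to each other than their spread. With SMARTA, Slc39a6 (54.8 ± 28.8 TPM) and Mt1 (45.7 ± 2.57 TPM) came first and were closer than their spread. Mtf1 at 15.4 ± 1.59 and Slc39a10 at 14.1 ± 6.94 TPM followed, and Mt2 stood at 6.82 ± 1.02, Mt3 at 2.96 ± 1.50 and Slc30a1 at 0.261 ± 0.208 TPM. The TPM of Mt2 are too low by an unknown amount, because its length includes the shared bases. The annotated exons of Mt1 cover its whole span of 1246 bases, while its coding sequence has 186. The TPM of Mt1 may thus be too low as well, which bears on its closeness to Slc39a6 with SMARTA.

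Of 22 further zinc genes looked for, the ZnT and ZIP transporters and Mt4, 16 were tested, and none was called by edgeR in either direction. At an unadjusted p under 0.05 there were 2 of 16, while 18.6% of all genes tested had such a p. DESeq2, which called 10% of the genes it gave an adjusted p, called 1 of the list, Slc30a7, higher. The median log2 fold change of the 16 was 0.20, against −0.0034 over all genes tested, and 11 were positive. That median was 0.10 without replicate 1 with SMARTA, 0.10 to 0.30 over all fits that leave out 1 library, and 0.04 with library totals, which move the median of all genes to −0.16. Slc30a7, which loads zinc into the early secretory pathway, averaged 65.7 ± 6.56 CPM in the group without SMARTA and 106 ± 12.2 CPM in the other (log2 fold change 0.69 ± 0.18, SE; edgeR adjusted p = 0.0767), higher in 3 of 3 libraries with SMARTA. It was the only one of the 16 without overlap between the groups. Of all genes tested 19.2% had no overlap, 8.73% higher with SMARTA.

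The other abundant ZnT genes, Slc30a6 and Slc30a9, had log2 fold changes of −0.19 ± 0.21 and 0.04 ± 0.41 (SE). That of Slc30a9 was 0.39 without replicate 1 with SMARTA and −0.41 without replicate 3, and that of Slc30a6 −0.06 without replicate 2 and −0.37 without replicate 3. The most abundant ZIP genes were Slc39a9 at 78.8 ± 9.10 and 86.4 ± 11.2 CPM, Slc39a4 at 64.0 ± 11.3 and 92.7 ± 43.3 CPM and Slc39a14 at 69.3 ± 7.97 and 83.2 ± 16.6 CPM without and with SMARTA. Their log2 fold changes of 0.13, 0.53 and 0.27 did not pass (edgeR adjusted p = 0.775, 0.425 and 0.561), and with library totals in place of TMM scaling those of Slc39a9 and Slc30a9 were −0.03 and −0.14. Slc39a4, the importer of dietary zinc in the gut, was at 140 CPM in replicate 1 with SMARTA, 54.4 CPM in replicate 2 and 83.9 CPM in replicate 3, and its log2 fold change was 0.09 without replicate 1 and 0.81 without replicate 2. That of Slc39a14 was 0.07 without replicate 3 with SMARTA. Slc30a8, Slc30a10 and Mt4 had no count in any library.

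**Figure D3:**
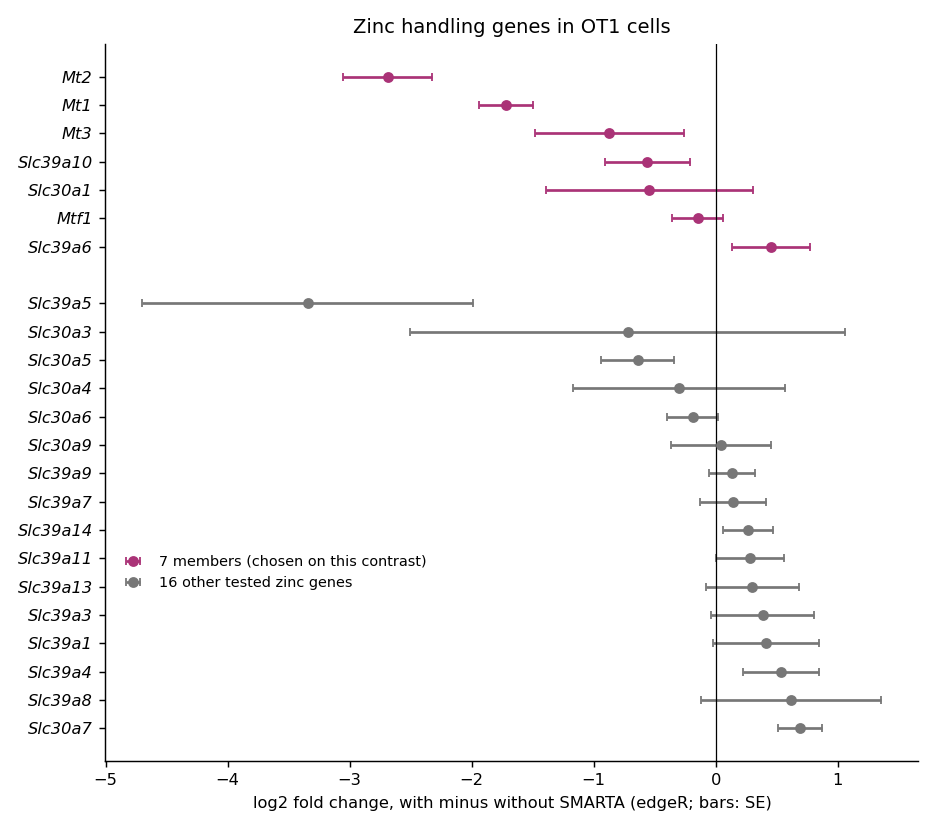
Log2 fold change with minus without SMARTA (x axis; bars are SE) of the 7 genes (purple) and of the 16 other tested zinc genes (grey). Mt2 and Mt1, at −2.69 and −1.72, lie left of the other 5 members, which run from −0.87 to 0.46; among the grey genes Slc39a5, at −3.34 ± 1.36, was lower than both but had at most 0.674 CPM in any library.

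Metallothionein genes are also known to respond to copper, to oxidative stress and to glucocorticoids, so lists of genes tied to these were counted too. The copper list is of genes that handle copper and was not chosen as genes that copper induces. The others include regulators, Nfe2l2 and Keap1 for oxidative stress and the receptor gene Nr3c1 for glucocorticoids. Counts over these lists are thus no direct measure of the responses. Of 9 tested copper handling genes none was called, with 2 at an unadjusted p under 0.05 (18.6% of all genes). DESeq2, which called 10% of the genes it gave an adjusted p, called 2 of this list, Atp7a higher and Commd1 lower. The copper chaperone Atox1 and the copper importer Slc31a1 had log2 fold changes of 0.04 and −0.14, and without replicate 1 with SMARTA −0.25 and 0.03. Of 14 genes of the oxidative stress response driven by NRF2 none was called, with 6 at an unadjusted p under 0.05, against the same 18.6% of all genes. DESeq2 called 3 of the 14, against the same 10%, Nfe2l2 and Osgin1 higher and Gsr lower. Prdx1 and Txn1, the most abundant of the 14, had −0.63 ± 0.26 and −0.55 ± 0.24 (SE; edgeR adjusted p = 0.243 and 0.266). Without replicate 1 with SMARTA edgeR called Atp7a, a copper exporter (log2 fold change 1.42), Nfe2l2, which encodes NRF2 itself (1.45), and Osgin1 (2.21) higher (edgeR adjusted p = 0.0360, 0.0163 and 0.00911). That fit called 907 of 16770 genes, 510 of them higher, which is more than the fit with all 7 libraries called.

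Of 9 tested glucocorticoid response genes, Klf9, a transcription factor induced by glucocorticoids, fell from 1.23 ± 0.389 to 0.0784 ± 0.0507 CPM, the latter on 1, 4 and 4 counts. Its log2 fold change was −3.95 ± 0.79 (SE; edgeR adjusted p = 0.0406), and it was lower in 3 of 3 libraries with SMARTA. Of the 7 fits that leave out 1 library, only that without replicate 1 with SMARTA called it (edgeR adjusted p = 0.0359). The other 8 were not called, while edgeR called 3.15% of all genes tested. DESeq2 called 5 of the list, against 10% of the genes it gave an adjusted p. Besides Klf9 these were Nr3c1, Tsc22d3, Sgk1 and Pik3ip1, all higher. At an unadjusted p under 0.05 there were 5 of the 9, against 18.6% of all genes tested. The log2 fold change of Sgk1 was 1.16, and 0.67 without replicate 1 with SMARTA. Without replicate 2 lacking SMARTA edgeR called Pik3ip1 higher, at 2.33 (edgeR adjusted p = 0.0340), in a fit that called 398 of 15543 genes, 157 of them higher. Tsc22d3, known as GILZ, averaged 414 ± 195 CPM in the group without SMARTA and 1013 ± 351 CPM in the other (edgeR adjusted p = 0.127). The median log2 fold changes of the copper, oxidative stress and glucocorticoid lists were 0.04, −0.35 and 0.38. With 1 library left out they ran from −0.04 to 0.18, from −0.58 to −0.19 and from 0.18 to 0.69. That of the copper list was −0.11 with library totals, −0.14 with DESeq2 and −0.16 with every gene that had a count, so its sign depends on the setting.

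Around the metallothionein genes, 10 other genes within 200000 bases were tested. Of these 2 were called lower and none higher, against 1.63% and 1.52% of all genes tested. The 2 were RP23-98C9.5, on the strand opposite Mt2, and Nup93, a component of the nuclear pore. RP23-98C9.5 shares exonic bases with Mt2, so its counts are not fully separate from those of Mt2. RP23-98C9.5, with 2, 3 and 1 counts in the libraries with SMARTA, went from 0.847 ± 0.389 to 0.0480 ± 0.0220 CPM, a log2 fold change of −4.05 ± 0.82 (SE; edgeR adjusted p = 0.0419). Leaving out any 1 of the 7 libraries ended its call (edgeR adjusted p from 0.0580 to 0.130). Nup93, which begins at 94214564, averaged 178 ± 27.3 CPM in the group without SMARTA and 86.1 ± 6.15 CPM in the other, lower in 3 of 3 libraries (−1.05 ± 0.19, SE; edgeR adjusted p = 0.0319). It was still called when replicate 2 lacking SMARTA or, in the other group, replicate 1 was left out, and in the other 5 such fits its edgeR adjusted p was 0.0701 to 0.117. On the other side Bbs2, a gene of the BBSome of cilia, and Ogfod1 had log2 fold changes of 0.47 and 0.07, or 0.30 and 0.29 without replicate 1 with SMARTA, and were not called. Both genes that fell were named after their values were seen.

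**Figure D4:**
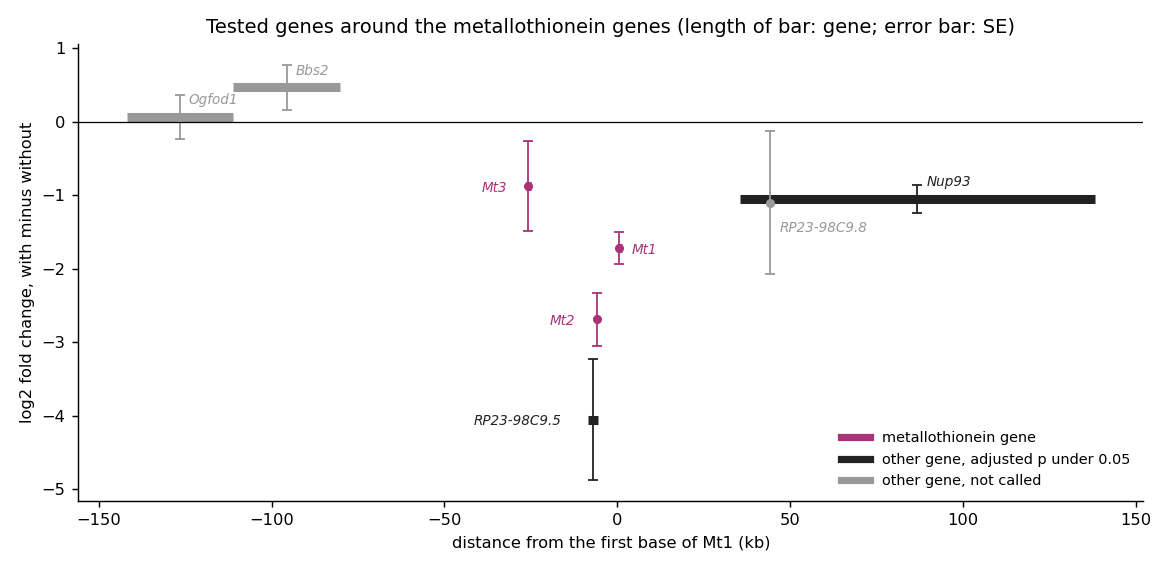
Log2 fold change with minus without SMARTA (y axis; bars are SE) of the 8 tested genes, members included, within 100000 bases of the metallothionein genes, by distance from the first base of Mt1 (x axis, kb); thick lines span the gene. Mt1, Mt2, Mt3, RP23-98C9.5, Nup93 and, at −1.10 ± 0.97, the scarce RP23-98C9.8 lie at −0.87 or below, and Bbs2 and Ogfod1 at 0.47 and 0.07.

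The genes whose pattern over the 7 libraries was most like that of Mt1 were sought among 8254 tested genes whose log2 CPM averaged 3 or more, by the mean absolute difference of log2 CPM after each gene was centred on its own mean. Gene models without an established symbol were counted in the 8254 but were not eligible to be named. The closest of the rest were Dis3, a ribonuclease of the RNA exosome, at 0.14 log2 units, and Pop1, a subunit of ribonuclease P, at 0.19. Pa2g4 at 0.20, the nucleolar gene Nop16 at 0.21 and Acoxl at 0.21 came next. All 5 were lower with SMARTA, with log2 fold changes of −1.47, −1.56, −1.38, −1.28 and −1.62, as the way they were chosen requires. Among the members Mt2 was at 0.45 from Mt1, Slc39a10 at 0.61, Mt3 at 0.76, Mtf1 at 0.76, Slc30a1 at 0.81 and Slc39a6 at 1.01. Mt2 was the nearest member. It averaged under the log2 CPM of 3 and so was not in the search. Those 5 genes lay nearer to Mt1 than Mt2 did, but they were picked as the closest of many. The larger fold change of Mt2 also adds to its distance, so nothing is read from this order.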

How the data were processed

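Messenger RNA was measured in 7 libraries, grouped by title. Per the labels' protocols, RNA from sorted cells was amplified (SMART-seq V4, 12 cycles) and sequenced as paired reads of 50 bases. The submitters' processing notes name STAR 2.6.0c, featureCounts 1.6.2 and GRCm38.p6. The deposited values are raw counts: the authors assigned read pairs to gene names over exons of GENCODE M17 without strand, per the file headers.

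The counts were tested with edgeR 4.0.16 in R 4.3.3 (filterByExpr with a minimum count of 10, TMM, robust quasi-likelihood, two-sided, all 7 libraries, no covariate), and p was adjusted over 15896 genes by Benjamini-Hochberg. Standard errors were taken from the F statistic. Single genes have TMM-scaled CPM, and marker sums use library totals; the search for genes like Mt1 added a prior count of 2 before the logarithm. The members and lists were chosen with earlier results of these data known. Named genes were the 7 members, the called genes of each list or its 2 most abundant and the 3 most abundant ZnT and ZIP genes. The 5 genes most like Mt1, among those with an established symbol, were named too. Genes called only by DESeq2 or only without 1 library, Slc39a5 and the neighbours of Mt1 were named after their values were seen. Alternatives were relative log expression scaling, library totals, every gene with a count, DESeq2 1.42.0, a block for the replicate number, and leaving out each library in turn.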

Additional observations from a re-analysis of the deposited data

Results flagged for a closer look

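In the group of 4 libraries without SMARTA, 1 library lay far from the other 3, by the gap as a share of the range, for 5 of the 60 genes looked at; chance alone flags about 1 gene in 20. Mt1 was at 51.3 CPM in replicate 3, against 72.0 to 72.4 CPM in the other 3, and the groups stayed apart with it. Dis3 was lowest in replicate 3 too, at 9.86 CPM against 13.8 to 14.1 CPM. It was chosen for its likeness to Mt1 over these same libraries, so it is not a case separate from Mt1. Gsr was at 9.41 CPM in replicate 4, against 16.2 to 16.6 CPM. Cox17 was at 60.3 CPM in replicate 1, against 46.2 to 47.6 CPM, and Slc7a11 at 2.43 CPM in replicate 1, against 0.0435 to 0.380 CPM.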

How the results depend on the processing

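In all 12 alternative fits Mt1, Mt2, Mt3, Mtf1, Slc30a1 and Slc39a10 had negative log2 fold changes and Slc39a6 a positive one; Mt1 ranged from −1.88 to −1.67 and Mt2 from −2.86 to −2.57. Library totals moved the median of all genes to −0.16, and 29.1% of calls were then higher, against 48.2%. Against 500 genes called over all genes, DESeq2 called 1769 and the fit with the replicate block 0. Leaving out replicates 1, 3 or 4 without SMARTA gave 65, 98 and 17, and leaving out replicates 1, 2 or 3 with SMARTA gave 907, 37 and 53. DESeq2 called 1 other zinc, 2 copper, 3 oxidative stress and 5 glucocorticoid genes, against 0, 0, 0 and 1. With every gene that had a count, 2 glucocorticoid genes and 1 neighbour of the metallothionein genes were called, against 1 and 2. With the replicate block 0 glucocorticoid genes and 0 neighbours were called, and in that fit neither Mt1 (−1.67) nor Mt2 (−2.60) was. The block adds terms to a fit of only 7 libraries, and replicate 4 without SMARTA has no partner in it. Calls lost in that fit therefore do not show that the replicate number matters. With 1 library left out 0 to 1 copper, 0 to 2 oxidative stress, 0 to 1 glucocorticoid genes and 0 to 1 neighbours were called. Same-numbered libraries did not pair: their deviations correlated at −0.27 to 0.03 across genes in the 3 pairs, and 0 of 6 libraries correlated best with their own number. The neighbours were added after seeing the data. Low counts limit Slc30a1 (2 to 47) and RP23-98C9.5 (1 to 59). The cause of these differences was not tested.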
